A study of Macaca mulatta with 16 samples.

Results

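The regions described here carried an ATAC-seq peak in CD4+ T cells of both states, naive and memory, and almost never in CD8+ T cells. Overlapping peaks of 16 deposited peak lists were merged into 55449 regions, and a region counted as open in a library with a peak in it. A CD4 lineage region was open in at least 7 of 8 CD4+ libraries and in at most 1 of 8 CD8+ libraries, and 534 of the 55449 regions (0.963%) met this rule. The regions were thus chosen by the measured presence of peaks, so their difference in presence between CD4+ and CD8+ libraries is a description and was not tested on them.

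ATAC-seq cuts DNA with a transposase where it is not packed away, and such accessible stretches are often promoters and enhancers. CD4+ helper T cells steer other immune cells through cytokines and surface ligands, while CD8+ T cells kill infected cells. The choice between the lineages is made in the thymus and kept through many divisions, in part by chromatin that stays accessible in one lineage alone. A naive T cell is one that its antigen has not activated so far, whereas memory T cells are the long-lived offspring of activated cells.

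Healthy rhesus macaques (Macaca mulatta) received 2-hydroxypropyl-beta-cyclodextrin, a cholesterol-binding ring of sugars sold as Kleptose HBP, under the skin. The dose was 1 ml/kg/day of a 15% (w/w) solution for up to 120 days. The sample titles name 2 animals, RhDBCb (animal 1) and RhM22 (animal 2), and peripheral blood of each was taken after and before treatment. Each sample gave 10000 sorted cells of memory CD4+, naive CD4+, memory CD8+ and naive CD8+ T cells, amplified for 11 to 15 cycles. This made 8 groups of 2 libraries, 1 per animal, namely memory CD4+ after and before, naive CD4+ after and before, and the same for CD8+ cells. No untreated animal was sampled at both times, so treatment and time cannot be told apart. File names number the second animal differently in its 4 populations, and the titles were followed. With 2 animals, p-values below measure the spread between these libraries.

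The 16 lists held 36307 to 42034 peaks (median 40452), and 24333 regions were open in all 16 libraries. The shortest lists came from animal 1 in naive CD8+ cells, with 37966 peaks after and 36307 before treatment, and the longest was that of memory CD4+ cells of animal 1 after treatment. Read depth was unknown, so a missing peak means that none was called and not that the chromatin was closed. Defining markers of the sorted populations were not checked and genes are not given, because a gene annotation and a genome of rheMac10, the build of all positions here, were not used. For the same reason no sequence is shown.

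Of the 534 CD4 lineage regions, 318 were open in 8 CD4+ libraries and 216 in 7. In CD8+ libraries 292 were never open and 242 were open in 1. The strictest form of the rule, 8 CD4+ and 0 CD8+ libraries, held for 173 regions, and 97 met the rule only just, with 7 and 1. The mirrored rule, with the lineages exchanged, gave 377 CD8 lineage regions. Just outside the rule lay 283 regions open in 6 CD4+ and at most 1 CD8+ libraries, and 379 open in 7 or 8 CD4+ and 2 CD8+ libraries.

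CD4 lineage regions had a peak in nearly every CD4+ library. In memory CD4+ cells 528 were open in animal 1 and 506 in animal 2 after treatment, and 501 and 519 before treatment. In naive CD4+ cells these numbers were 499 and 497 after, and 503 and 503 before. Missing peaks fell more often in naive than in memory libraries, 82 in the 4 memory libraries (6 to 33 in each) and 134 in the 4 naive libraries (31 to 37 in each), and the ranges overlapped. The fewest missing peaks, 6, were in the longest list, and the part of list length in these counts was not tested. Over time the missing peaks were 106 after and 110 before treatment.

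The single CD8+ peaks that the rule allowed were unevenly spread over libraries. Memory CD8+ lists held 18 and 13 of them in animals 1 and 2 after treatment, and 65 and 23 before. Naive CD8+ lists held 5 and 56 after treatment, and 2 and 60 before. Most thus came from 3 libraries, memory before treatment in animal 1 and both naive libraries of animal 2. Naive lists of animal 1 were the shortest of all and held the fewest, and whether depth set these numbers was not tested. The 242 single CD8+ peaks were weak, with a median rank at the 8.12th percentile of area score in their own list. The area score is the peak caller's measure of a peak's size, and a percentile is the share of peaks in the same list that score no higher. The same 242 regions had a median over regions of the mean CD4+ rank of 20.9, and 206 of them ranked lower in the CD8+ list than on average in the CD4+ lists. The rule kept out regions with more than 1 CD8+ peak. How far this favours weak CD8+ peaks was not tested, and peaks of 1 CD8+ list in other regions were not compared. The CD8+ summit, the highest point of the peak, lay a median of 18.5 bp from the median CD4+ summit, and 198 (81.8%) lay within 150 bp.

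**Figure D1:**
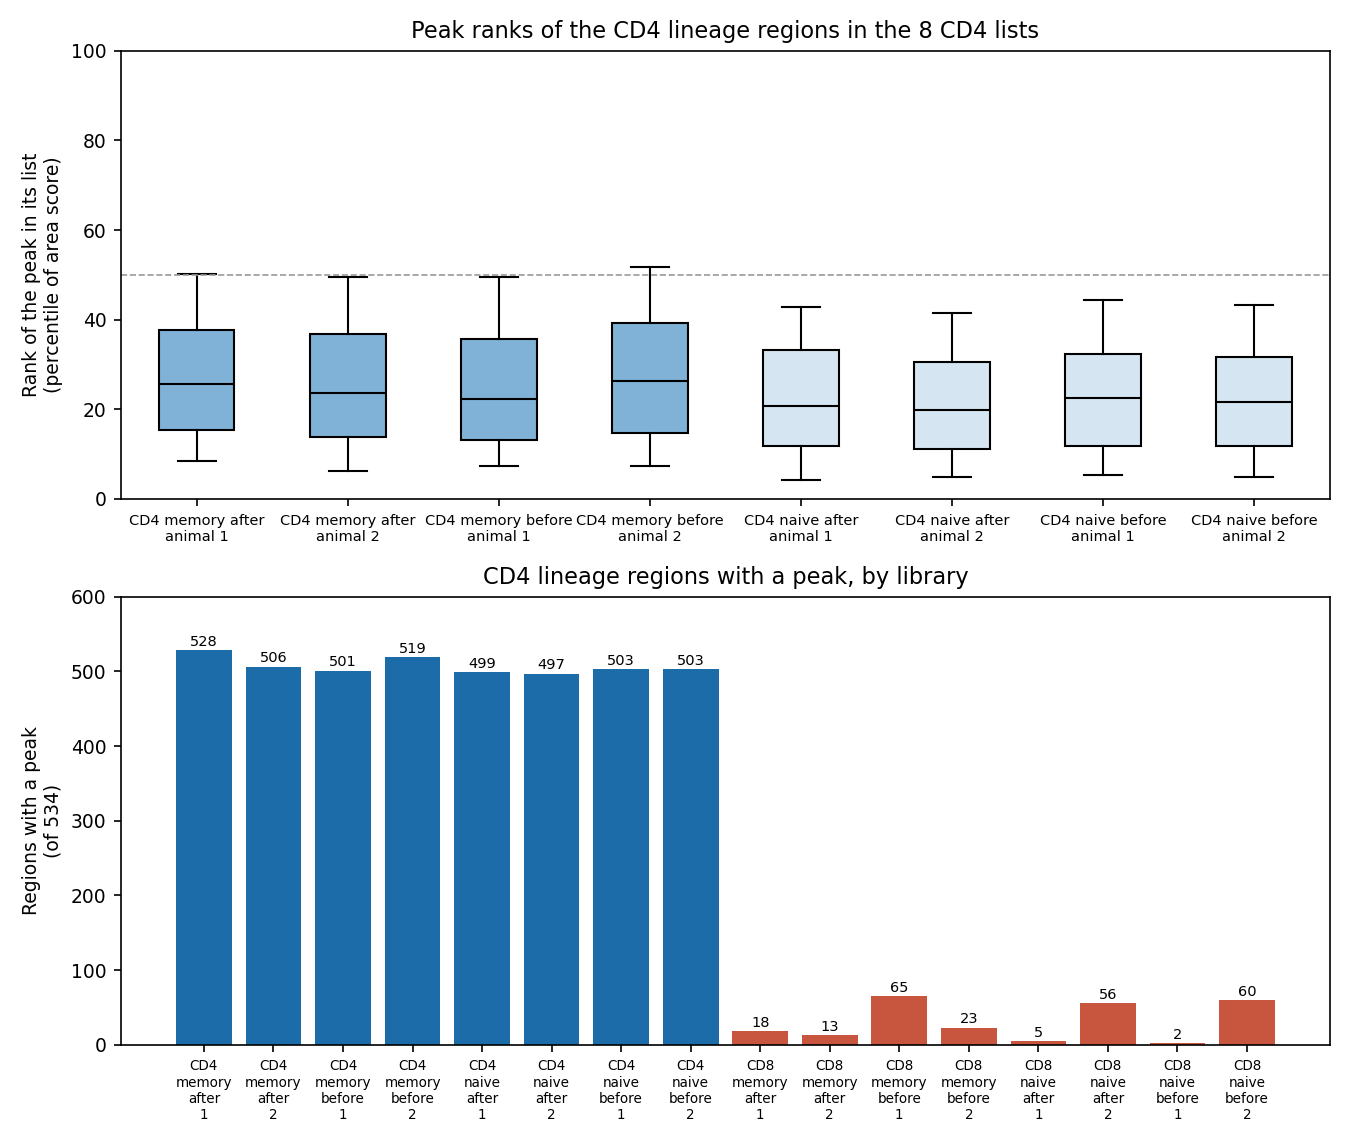
Upper panel: rank of the peaks in CD4 lineage regions, as the percentile of area score within the list, in the 8 CD4+ lists (line, median; box, quartiles; whiskers, 10th to 90th percentile; dashed line, middle of a list). Lower panel: number of the 534 regions with a peak in each of the 16 libraries, from 497 to 528 in CD4+ and from 2 to 65 in CD8+ libraries.

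Peaks in CD4 lineage regions were small within their lists. These lists also hold the peaks open in both lineages, which the rule leaves out, and how far the rule itself favours low ranks was not tested. Their median percentile was 25.6 and 23.7 in memory CD4+ lists after treatment (animals 1 and 2) and 22.3 and 26.4 before. In naive lists it was 20.6 and 19.9 after, and 22.6 and 21.6 before. Memory lists were on the whole the higher, 24.5 ± 1.88 against 21.2 ± 1.16 (SD, n = 4 each), with overlapping values. Their peaks were also wider in memory than in naive lists, with median widths of 780 to 854 bp in memory and 714 to 751 bp in naive lists, which did not overlap. Over all peaks the median widths were 1139 to 1188 bp in memory CD4+ lists and 1095 to 1184 bp in naive CD4+ lists. The median −log10 p at the summit was 3.45 to 3.59 for these peaks in memory lists and 3.44 to 3.50 in naive lists, against 4.41 to 4.69 over all peaks of the 8 lists.

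Averaged over the CD4+ lists with a peak, the percentile of a CD4 lineage region was 22.5 in the median. It was 4.11 for the lowest and 83.6 for the highest region, and 11.3 and 41.7 at the 10th and 90th percentile of regions. Under the 25th percentile lay 312 regions (58.4%), and 17 (3.18%) reached the 50th. CD8 lineage regions ranked higher in the CD8+ lists, with a median of 34.1 and 61 regions (16.2%) at the 50th percentile or above. Regions open in 8 CD4+ lists had a median of 26.7, and those open in 7 had 17.9. The lowest was a region on chromosome 1 at 15712696 to 15713117, with percentiles between 0.391 and 6.57 in the 7 lists with a peak.

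**Figure D2:**
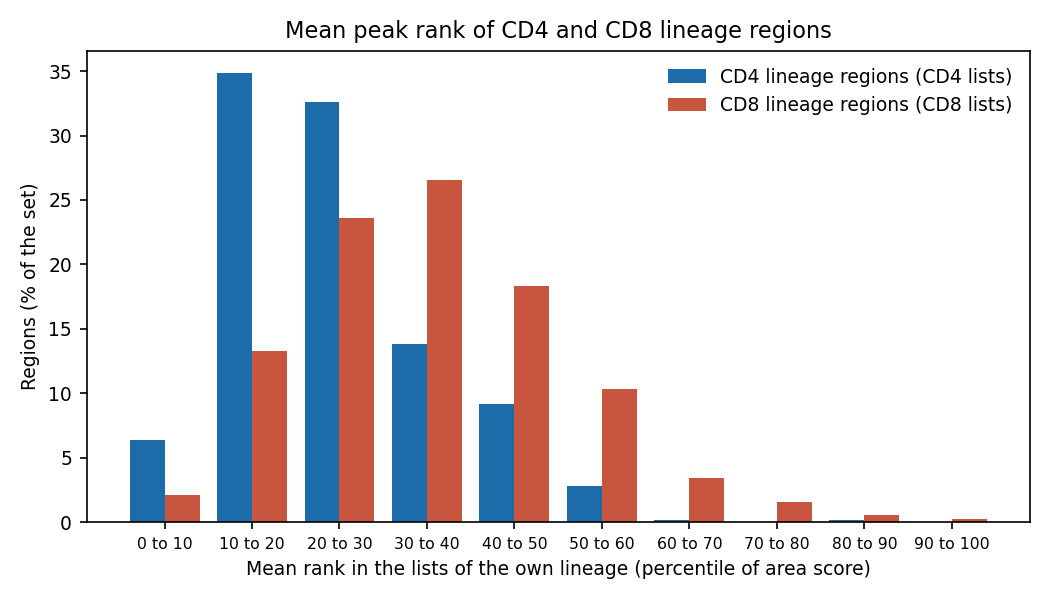
Share of the 534 CD4 lineage regions (mean rank in CD4+ lists) and of the 377 CD8 lineage regions (mean rank in CD8+ lists) in bands of 10 percentile points of area score. CD4 lineage regions gather in the low bands, with 34.8% between 10 and 20, where 13.3% of CD8 lineage regions lie.

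The regions were narrower than those open in all 16 libraries, but in the median wider than regions open in 1 to 15 libraries. Their merged width had a median of 1072 bp, with 685.7 and 1816.1 bp at the 10th and 90th percentile, and 34 (6.37%) exceeded 2 kb. CD8 lineage regions had a median of 1320 bp, and regions open in all 16 libraries had 2229 bp, with 57.7% over 2 kb. For regions open in 1 to 15 libraries the median was 855 bp, with 7.40% over 2 kb. A merged region grows with the number of peaks joined in it, so widths of sets open in different numbers of libraries are not alike in construction. Summits lay near each other across the CD4+ lists in most regions, though less closely than in regions open in all 16 libraries. In the 318 regions open in all 8, the summits spanned a median of 100 bp, and in 190 (59.7%) they fell within 200 bp. For regions open in all 16 libraries the CD4+ summits spanned a median of 55 bp, and 68.2% fell within 200 bp. The widest CD4 lineage region, 7450 bp on chromosome 18 at 74114769 to 74122218, was open in 7 lists at percentiles from 1.66 to 47.7. The second widest, 5684 bp on chromosome 12 at 57850323 to 57856006, is described below with the regions that differed by state.

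Just inside the rule, the region of highest mean rank lay on chromosome 9 at 102706357 to 102708240. Memory CD4+ lists had it at percentiles 63.3 and 57.8 after and 59.2 and 59.8 before treatment. Naive lists had it at 24.8 after treatment in animal 1, and at 48.8 and 17.6 before, with no peak in animal 2 after treatment. A region on chromosome 1 at 223200811 to 223202284 was similar, at 54.3 to 60.5 in the 4 memory lists and 12.4 to 27.1 in 3 naive lists. Both had their CD8+ peak in memory cells of animal 1 before treatment, at percentiles 17.6 and 36.8. Just outside, on chromosome 11 at 6949846 to 6951705, all 8 CD4+ lists had a peak at 65.5 to 72.6, and both naive CD8+ lists of animal 2 had one, at 44.6 after and 52.8 before. Another with 8 CD4+ and 2 CD8+ lists, on chromosome 14 at 9039752 to 9042443, stood at 54.9 to 68.4 in CD4+ lists and at 38.4 and 8.45 in CD8+ lists. With 6 CD4+ lists, a region on chromosome 12 at 127802720 to 127805025 lacked peaks in both naive lists of animal 2. One on chromosome 11 at 33773550 to 33775910 lacked them in both memory lists of animal 2. These just-outside regions ranked as high as or higher than most CD4 lineage regions and were kept out by presence alone. They were named for having the highest mean rank on their side of the rule, so their high rank follows from that choice. The median of the mean CD4+ rank was 15.7 over all 283 regions with 6 CD4+ lists. Over all 379 regions with 2 CD8+ lists it was 25.4, and over the CD4 lineage regions 22.5.

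The 12 strongest regions open in 8 CD4+ and 0 CD8+ libraries were described one by one. First stood a region of 4303 bp on chromosome 10 at 88198767 to 88203069. Its percentile was 81.0 and 86.9 in memory lists after treatment (animals 1 and 2) and 76.2 and 92.0 before, and 83.0 and 83.8 in naive lists after and 80.3 and 85.6 before. It was the one CD4 lineage region above the 75th percentile on average, and memory and naive values overlapped. The next region, on chromosome 8 at 48443846 to 48445961, had percentiles from 67.7 to 74.1 in memory lists and from 40.6 to 55.1 in naive lists. On chromosome 4 at 46539667 to 46541861 memory lists gave 68.0 to 70.9 and naive lists 43.9 to 56.1. On chromosome 3 at 38533110 to 38537619 memory lists gave 63.7 to 73.6 and naive lists 37.8 to 55.6. In each of these 3 all memory lists stood above all naive lists. The region on chromosome 9 at 1077795 to 1079298 was at 55.0 to 70.1 in memory and at 39.8 to 62.0 in naive lists, which overlapped between animals. Within each animal memory stood above naive, at 58.2 and 55.0 against 39.8 and 49.3 in animal 1 (after and before treatment), and at 69.4 and 70.1 against 62.0 and 59.8 in animal 2. In the comparison of states tested below with limma, its difference of 11.3 points had an adjusted p of 0.317 without the animal in the fit and 0.0284 with the animal as a block.

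Memory and naive ranks overlapped in 5 of the other 7 strong regions. On chromosome 6 at 54856639 to 54857935 percentiles were 52.3 to 55.8 in memory and 49.6 to 58.7 in naive lists. On chromosome X at 132770886 to 132772521 they were 46.5 to 55.0 in memory and 49.98 to 53.6 in naive lists. These 2 varied least among the 12, with means over the 8 CD4+ lists of 54.4 ± 2.87 and 52.2 ± 2.85 (SD, n = 8). On chromosome 5 at 143817797 to 143819295 the lists of animal 2 were all above those of animal 1, at 59.2 to 63.8 in animal 2 and 27.2 to 51.3 in animal 1. A region on chromosome 16 at 19243239 to 19244812 had a mean of 51.8 ± 7.40, and one on chromosome 20 at 482229 to 484145 a mean of 49.6 ± 6.43 (SD, n = 8). The last 2 of the 12 ranked higher in memory lists, as tested below. One lay on chromosome 12 at 91382715 to 91385391, at 55.6 to 65.4 in memory and 43.6 to 54.6 in naive lists, and the other on chromosome 9 at 58320428 to 58322806, at 62.1 to 68.3 in memory and 21.9 to 55.0 in naive lists.

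Because presence chose the regions, the lineage difference was tested on libraries whose own peak presence was not used to choose them. The bounds of the regions still came from merging the peaks of all lists, those of the libraries read included. The readings were therefore not fully independent of the choice. Regions open in 4 of 4 CD4+ and 0 of 4 CD8+ libraries of one animal, state or time were read in the 4 CD4+ and 4 CD8+ libraries of the other. In all 6 such readings the CD4+ libraries had peaks in more of the chosen regions than the CD8+ libraries, with no overlap. Each reading had p = 0.0286 in the exact two-sided permutation test, the smallest that 4 against 4 libraries allow, and an adjusted p of 0.0286 over the 6 tests. All 6 readings split the same 16 libraries of 2 animals, so they are not independent of each other and do not add up as separate support. CD4+ exceeded CD8+ in 4 of 4 matched pairs each time, and the exact sign-flip test over pairs gave p = 0.125, the smallest it allows, which is not past the threshold. No chosen region had the opposite pattern in full in any reading.

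Across times the agreement was closest. Of 439 regions chosen after treatment, 86.8% ± 2.06 had a peak in the CD4+ libraries before treatment and 11.7% ± 6.43 in the CD8+ libraries (SD, n = 4 each). For 382 regions chosen before treatment and read after, the shares were 88.0% ± 3.64 in CD4+ and 10.9% ± 6.14 in CD8+ libraries. Regions open in 1 to 7 of the 8 choosing libraries gave 42.2% in CD4+ and 38.6% in CD8+ libraries in the reading before treatment, and 42.3% and 38.2% in the reading after. The same animals and populations stood on both sides of this split, so it shows repeat sampling and not new animals.

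Across animals the CD8+ share was uneven. The 785 regions chosen in animal 1 were open in 81.0% to 82.7% of cases in CD4+ libraries of animal 2. Its memory CD8+ libraries were at 10.7% after and 13.1% before treatment, and its naive CD8+ libraries at 41.9% and 42.8%. The mean difference between CD4+ and CD8+ libraries was 54.8 percentage points. Regions open in some but not all of the choosing libraries, the background used across times, gave 43.3% in CD4+ and 42.1% in CD8+ libraries of animal 2. The naive CD8+ shares of animal 2 were thus near this background, and its memory CD8+ shares were below it. The 470 regions chosen in animal 2 were open in 72.6% to 85.5% of cases in CD4+ libraries of animal 1 and in 3.19% to 20.2% in its CD8+ libraries, a difference of 67.0 points. In animal 1 the background was 40.2% in CD4+ and 33.8% in CD8+ libraries. Animal 1 had the shortest naive CD8+ lists, and the part of list length in the naive CD8+ shares was not tested.

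Across states the lineage difference was smaller. The 764 regions chosen in naive cells were open in 72.6% ± 2.45 of cases in memory CD4+ libraries and 30.1% ± 3.31 in memory CD8+ libraries (SD, n = 4 each), a difference of 42.4 points. The 1512 regions chosen in memory cells were open in 79.9% ± 0.954 of cases in naive CD4+ libraries and 48.6% ± 12.2 in naive CD8+ libraries, a difference of 31.3 points. In naive CD8+ cells the share was 42.6% and 59.3% after treatment (animals 1 and 2), and 34.3% and 58.3% before. Regions that parted the lineages among memory cells were thus often open in naive CD8+ cells too. Regions open in some but not all of the choosing libraries, the background used across times, gave 38.8% in naive CD4+ and 33.2% in naive CD8+ libraries. The mean naive CD8+ share of the chosen regions, 48.6%, was thus above this background. In memory libraries the background was 44.0% in CD4+ and 36.7% in CD8+ libraries, and the chosen regions' CD8+ share of 30.1% lay below it. The 173 regions that met the full pattern on both sides were 22.6% of the 764 and 11.4% of the 1512. Whether readings across states differed from readings across times or animals was not tested.

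**Figure D3:**
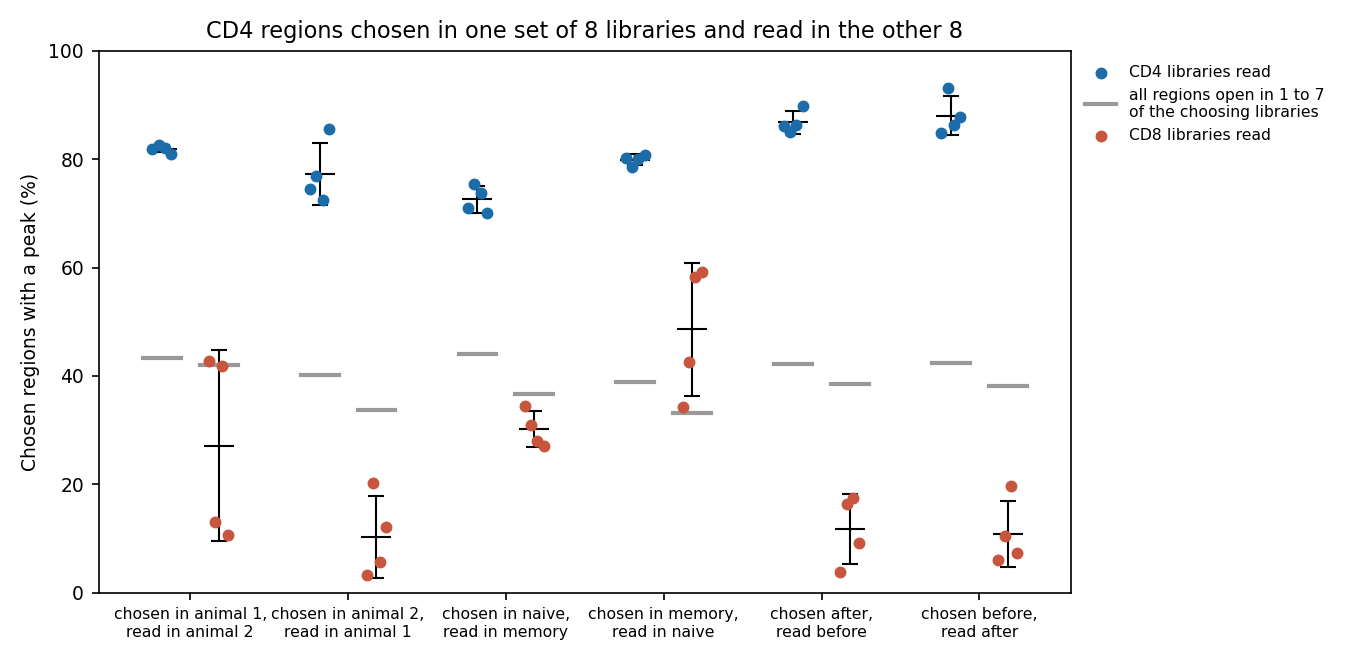
Share of regions chosen as CD4-restricted in 8 libraries that had a peak in each of the other 8 (points, libraries; black bars, mean and SD, n = 4; grey lines, mean share for all regions open in 1 to 7 of the choosing libraries). CD4+ libraries are above CD8+ libraries in all 6 readings, with the smallest gap, 31.3 points, for regions chosen in memory and read in naive cells.

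Memory and naive CD4+ cells were then compared by the rank of the peak. Ranks came from lists shortened to the 36307 peaks of highest area score, the length of the shortest list, and a region was tested if it had a peak in all 8 shortened CD4+ lists. This left 26394 regions, of which 158 were CD4 lineage regions. Of the other 376, 216 lacked a peak in 1 whole CD4+ list and 160 lost one by the shortening. The 158 are thus the stronger CD4 lineage regions. Differences are in percentile points and were tested with limma, with Benjamini-Hochberg adjustment over the 26394 regions and a threshold of 0.05.

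Memory CD4+ cells ranked 32 of the 158 regions (20.3%) higher than naive cells, while 9.23% of all tested regions were called in that direction. They ranked 17 (10.8%) lower, near the 9.69% of all tested regions. Among regions of mean rank below 50, the shares were 28 of 150 higher and 17 of 150 lower, against 10.9% and 11.4% of all such regions. The median difference was 2.36 points over the 158 regions and -0.26 over all tested regions. In 32 of the 158 regions (20.3%) every memory rank lay above every naive rank, against 11.8% of all tested regions, and in 19 (12.03%) every memory rank lay below, against 13.4%. Differences called higher ran from 9.54 to 36.9 points on 16 chromosomes, and in 29 of these 32 regions the ranks did not overlap. Those called lower ran from 9.07 to 29.8 points below naive on 12 chromosomes, with 14 of 17 not overlapping. A call on the same ranks itself favours ranks that do not overlap, so the counts of 29 and 14 are no further support. Leaving out 1 library gave 22 to 37 regions higher (13.02% to 20.7% of the 165 to 185 then tested, against 5.78% to 7.42% of all tested regions). The number lower was 3.78% to 6.98% of those tested, against 6.11% to 7.22% of all. It was 7 without naive after treatment of animal 1 or naive before treatment of animal 2, 12 without memory before treatment of animal 1, and 9 to 11 with 1 of the other CD4+ libraries left out.

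The largest difference toward memory lay on chromosome 1 at 96638767 to 96640085. Memory ranks were 54.0 and 60.1 after treatment (animals 1 and 2) and 56.0 and 61.7 before, and naive ranks were 2.75 and 26.2 after and 29.6 and 25.8 before. All memory ranks exceeded all naive ranks, by 36.9 ± 5.56 points on average (SE, limma adjusted p = 0.00821). On chromosome 12 at 21126739 to 21128658 memory ranks were 52.4 and 51.7 after and 56.4 and 53.2 before, against naive ranks of 7.66 and 22.4 after and 23.7 and 23.9 before. The difference was 34.0 ± 3.29 points (adjusted p = 0.00211). On chromosome 9 at 75927200 to 75928912 memory ranks were 41.6 and 50.3 after and 51.3 and 55.1 before, and naive ranks 2.48 and 10.6 after and 23.5 and 27.8 before. The difference was 33.5 ± 3.60 points (adjusted p = 0.00300), again with no overlap.

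On chromosome 3 at 185003903 to 185005238 memory ranks were 51.3 to 59.3 and naive ranks 5.02 to 38.4, a difference of 31.3 ± 6.82 points (limma adjusted p = 0.0262). On chromosome 9 at 58320428 to 58322806, one of the 12 strongest regions above, they were 56.1 to 64.3 in memory and 12.9 to 49.9 in naive lists, a difference of 29.1 ± 5.59 points (adjusted p = 0.0176). On chromosome 15 at 102833022 to 102834275 they were 45.5 to 51.8 in memory and 13.3 to 27.4 in naive lists, a difference of 28.4 ± 3.53 points (adjusted p = 0.00462). Of the 12 strongest regions 4 more were called higher in memory, those on chromosome 8 (23.8 ± 3.65 points), chromosome 4 (20.8 ± 2.50), chromosome 3 (21.02 ± 4.70) and chromosome 12 (14.5 ± 3.43), and none was called lower. Calls on 4 of these regions were lost when 1 library was left out. For chromosome 3 at 185003903 it was memory before or after treatment of animal 1, or memory after or naive before of animal 2 (limma adjusted p = 0.0677 to 0.0751), and normal scores in place of ranks also ended that call (adjusted p = 0.0531). For chromosome 9 at 58320428 it was naive before or memory after treatment of animal 1 (adjusted p = 0.0509 and 0.0554). For chromosome 3 at 38533110 it was any library but naive after treatment of either animal and memory before of animal 2 (adjusted p = 0.0649 to 0.0770). For chromosome 12 at 91382715 it was any but naive before and memory after treatment of animal 1 (adjusted p = 0.0563 to 0.0869).

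Toward naive cells the largest difference lay on chromosome 3 at 84287513 to 84289380. Memory ranks were 24.5 and 39.9 after treatment (animals 1 and 2) and 7.78 and 41.0 before, and naive ranks were 58.1 and 59.8 after and 57.2 and 57.3 before. The naive ranks were tight and all above the memory ranks, which fell by 29.8 ± 7.46 points (SE, limma adjusted p = 0.0396). On chromosome 12 at 57850323 to 57856006 memory ranks were 30.6 and 19.3 after and 15.7 and 21.4 before, against naive ranks of 56.7 and 52.9 after and 37.8 and 49.5 before. The difference was -27.5 ± 3.70 points (adjusted p = 0.00579). On chromosome 1 at 124480772 to 124482204 memory ranks were 6.37 to 21.3 and naive ranks 26.8 to 43.5, a difference of -24.6 ± 3.86 points (adjusted p = 0.00929).

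A narrow region of 736 bp on chromosome 5 at 119977188 to 119977923 had the smallest error of the 6 lower regions named. Memory ranks were 13.99 to 22.3 and naive ranks 37.9 to 44.0, a difference of -22.2 ± 2.06 points (limma adjusted p = 0.00186). On chromosome 11 at 43813883 to 43814797 memory ranks were 3.03 to 26.4 and naive ranks 31.5 to 39.5 (-21.7 ± 4.90 points, adjusted p = 0.0291). On chromosome 8 at 122046928 to 122047951 memory ranks were 10.8 to 34.0 and naive ranks 36.1 to 47.0 (-21.2 ± 3.81 points, adjusted p = 0.0142). None of these 6 had overlapping memory and naive ranks. Leaving out any 1 library other than the memory libraries before treatment ended the call on chromosome 3 at 84287513 (adjusted p = 0.0537 to 0.106) and that on chromosome 11 (adjusted p = 0.0605 to 0.0796). The first of these calls was also lost with normal scores in place of ranks and with whole lists (adjusted p = 0.0607 and 0.0510), and the second with normal scores (adjusted p = 0.0593).

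Where a called region had a CD8+ peak, that peak was mostly in the same state. Of the 32 regions higher in memory CD4+ cells 14 had one, 10 in a memory and 4 in a naive CD8+ list. Of the 17 lower in memory 7 had one, 1 in a memory and 6 in a naive CD8+ list. Over all 158 tested regions 68 had one, 33 in a memory and 35 in a naive list. These counts are a description, since the rule allowed 1 CD8+ peak at most and 3 libraries supplied most of them.

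**Figure D4:**
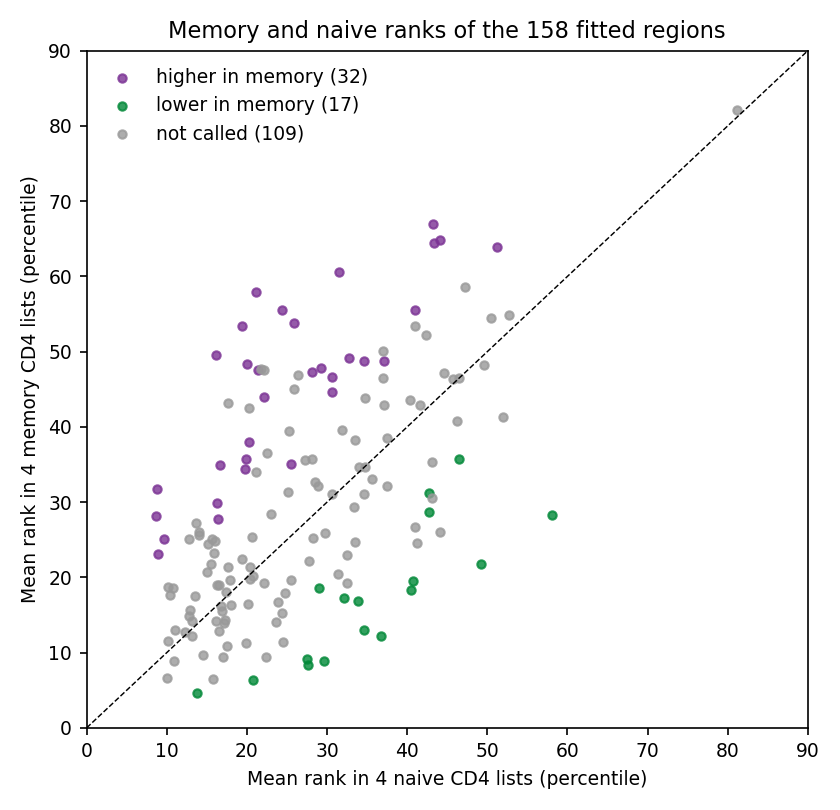
Mean rank in the 4 memory CD4+ lists against the mean rank in the 4 naive CD4+ lists for the 158 tested CD4 lineage regions, in percentiles of area score in lists of 36307 peaks (dashed line, equal ranks). The 32 regions called higher in memory lie above the line, by up to 36.9 points, and the 17 called lower lie under it.

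Cyclodextrin treatment left no CD4 lineage region past the threshold. After against before treatment, limma called 0 of the 158 higher and 0 lower, where 0.0152% and 0.0227% of all tested regions were called. At an unadjusted p under 0.05 there were 23 of the 158, 9 higher and 14 lower after treatment, and the smallest adjusted p was 0.314. That was 14.6% of the 158, against 11.9% of all tested regions (3148 of 26394), among which 1779 were higher and 1369 lower. By direction, 5.70% of the 158 were higher, against 6.74% of all, and 8.86% were lower, against 5.19% of all. Whether these shares differ was not tested. The median difference was -1.63 points over the 158 and 0.24 over all tested regions. First among the higher ones by p, not past the threshold, was a region on chromosome 9 at 57974552 to 57975629. It ranked 37.3 and 36.3 after treatment in memory cells (animals 1 and 2) and 31.1 and 32.8 in naive cells, against 34.3 and 32.4 before in memory and 18.9 and 19.5 in naive cells. The difference was 8.10 ± 2.01 points (SE, adjusted p = 0.314), with the wider gap in naive cells.

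Next, also not past the threshold, were regions on chromosome 1 at 218317305 to 218318871 (6.63 ± 1.71 points, limma adjusted p = 0.320) and chromosome 15 at 20481108 to 20484973 (9.84 ± 3.52, adjusted p = 0.378). Toward lower ranks after treatment the first was on chromosome 15 at 30797009 to 30797827. It ranked 9.47 and 24.2 after in memory and 9.30 and 10.7 in naive cells, against 30.7 and 25.2 before in memory and 30.9 and 26.8 in naive cells. All ranks after treatment lay under all ranks before, by -15.0 ± 3.65 points on average (adjusted p = 0.314). Also lower but not past the threshold were the region on chromosome 9 at 75927200 named above (-13.2 ± 3.60, adjusted p = 0.325) and one on chromosome 20 at 59644172 to 59645791 (-5.74 ± 1.64, adjusted p = 0.325).

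Whether the change over treatment differed between memory and naive cells was tested as an interaction. limma called 0 of the 158 CD4 lineage regions and 0 of all 26394 tested regions, a background of 0%. At an unadjusted p under 0.05 there were 5 of the 158 and 748 of all. The first by p lay on chromosome 6 at 6625776 to 6626687, at 11.98 and 8.71 after against 17.1 and 18.6 before in memory cells, and at 28.4 and 27.1 after against 19.1 and 19.8 before in naive cells. The interaction was -15.8 ± 2.05 points (SE, adjusted p = 0.513). The second was the chromosome 9 region at 57974552 (-9.27 ± 1.69, adjusted p = 0.975).

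CD4 lineage regions lay on all 21 chromosomes. Their share of a chromosome's regions was lowest on chromosome 14, with 12 regions (0.447%), and highest on chromosome 17, with 23 (1.83%). Chromosome 1 held the most, 54. Chromosome X held 18, which was 3.37% of CD4 lineage regions, where 2.68% of all regions lie, and 1 of the 377 CD8 lineage regions was on X. Of the 18 on X, 8 belonged to the single group described next.

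Some CD4 lineage regions lay close together. Another one was found within 50 kb of 120 (22.5%) of them, whereas 5.69% of the regions open in 1 to 15 libraries had a CD4 lineage region that near. This was not particular to CD4, since 95 of the 377 CD8 lineage regions (25.2%) had another CD8 lineage region within 50 kb. A CD8 lineage region lay within 50 kb of 11 (2.06%) of the CD4 lineage regions, against 4.38% of regions open in 1 to 15 libraries. The nearest region open in all 16 libraries was a median of 12.3 kb away, against 13.0 kb from regions open in 1 to 15 libraries. Joined where at most 50 kb lay between neighbours, the 120 formed 48 groups, namely 35 of 2, 8 of 3, 3 of 4, 1 of 6 and 1 of 8 regions. The other 414 stood alone.

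The largest group held 8 CD4 lineage regions over 89.6 kb of chromosome X, from 132717158 to 132806730. The span held 23 regions, of which 1 was open in all 16 libraries, 1 was a CD8 lineage region and 12 others were open in more CD4+ than CD8+ libraries. The median percentile of its CD4 lineage regions was 32.2 and 34.1 in memory CD4+ lists after treatment (animals 1 and 2), and 31.9 and 43.2 before. In naive lists it was 27.0 and 26.6 after, and 30.1 and 31.6 before. Memory lists were all above naive lists here, by little, and of its 5 tested regions none was called in the comparison of states, with differences of 0.0902 to 8.85 points. Over the 8 CD8+ lists 2 peaks fell in the 8 regions, both in memory cells of animal 1.

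The second group held 6 CD4 lineage regions over 142.5 kb of chromosome 1, from 96497630 to 96640085, among 16 regions, 4 of them open in every library. Its median percentile was 52.0 and 52.5 in memory lists after treatment and 52.9 and 54.4 before, against 25.5 and 20.8 in naive lists after and 33.2 and 29.8 before. All 3 tested regions of the group were called higher in memory cells, by 16.02 to 36.9 points, among them the region of largest difference above. Of the other regions in the span 5 were tested and 1 was called higher, with differences of -2.97 to 7.32 points. Regions of one stretch share their chromosome neighbourhood and are not independent of each other.

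There were 3 groups of 4. Chromosome 9 held one from 58273562 to 58322806 and a second between 75871875 and 75928912, and the third lay on chromosome 17 at 22752605 to 22807272. No CD8+ list had a peak in any of their regions. In the first of these the median percentile was 31.8 to 41.0 in memory and 19.2 to 24.3 in naive lists, and 2 of 3 tested regions were called higher in memory. In the second it was 46.4 to 51.7 in memory and 24.9 to 44.3 in naive lists, and 1 of 4 was called. In the third it was 42.6 to 49.4 in memory and 21.8 to 27.6 in naive lists, and 1 of 2 was called. The third span held no region besides its 4 CD4 lineage regions. In each of the 5 groups the medians of memory and naive lists did not overlap, with memory above naive. No tested region of these 5 groups was called lower in memory. Over all groups of 2 or more regions, 9 of the 32 regions called higher and 3 of the 17 called lower lay in a group. Of the 158 tested regions 39 did.

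**Figure D5:**
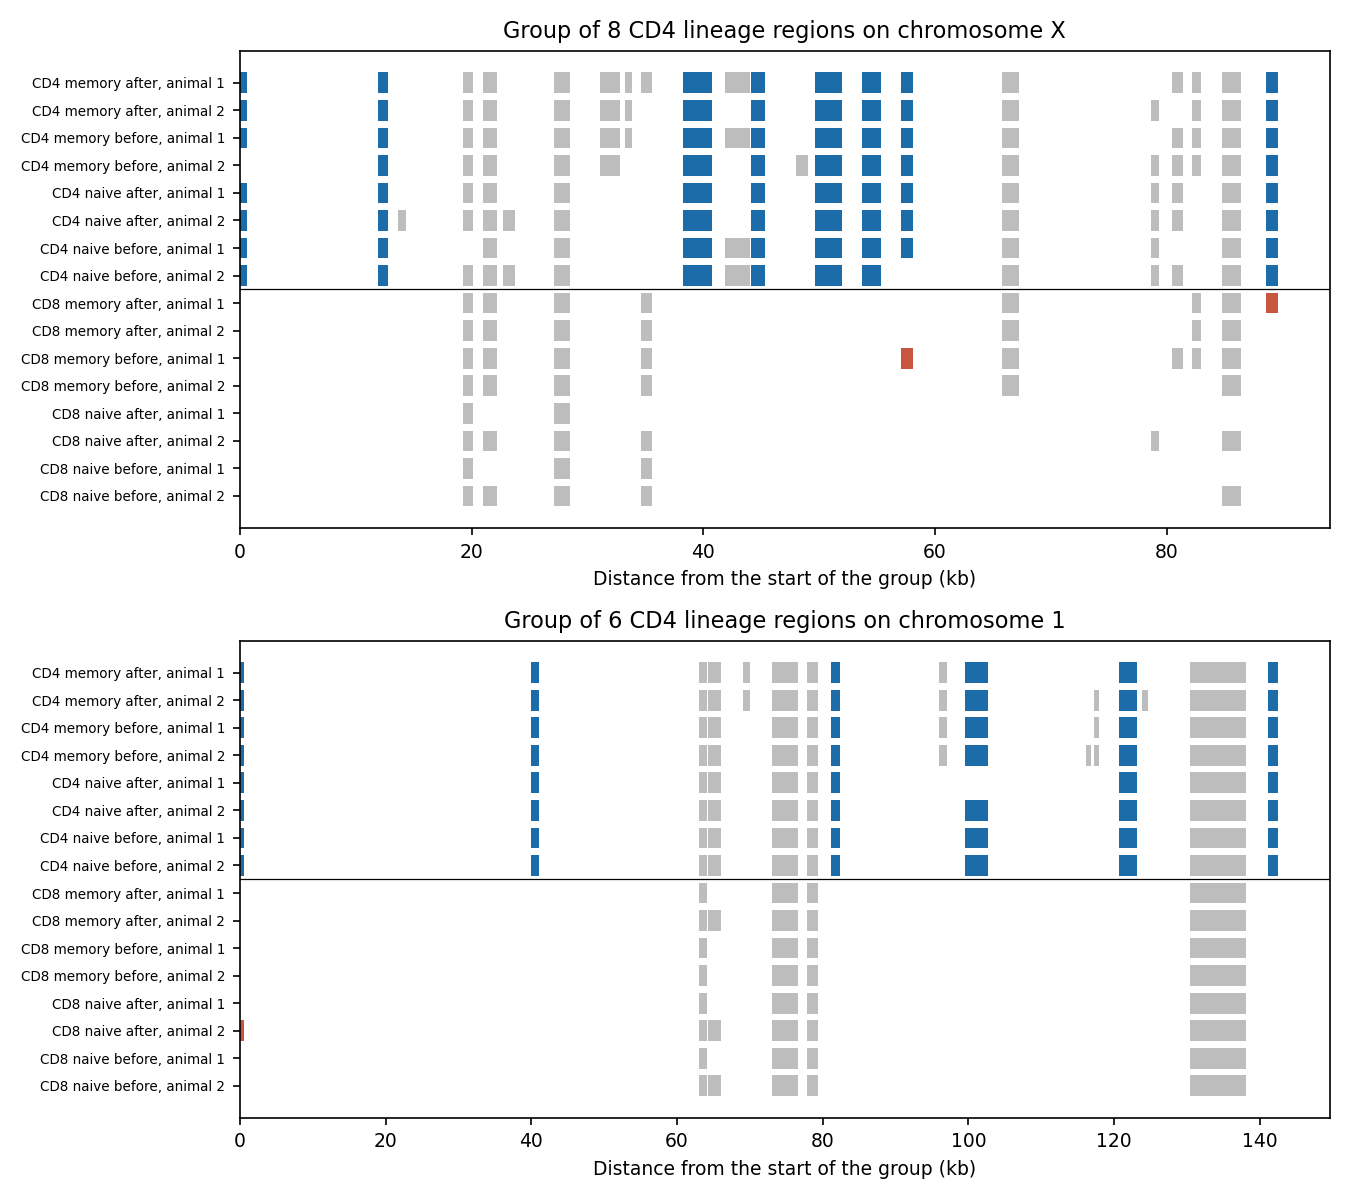
Regions with a peak in each of the 16 libraries across the groups of 8 regions on chromosome X (upper panel) and of 6 regions on chromosome 1 (lower panel), by distance from the start of the group in kb. Each bar is the extent of a merged region in a library with a peak in it (blue, CD4 lineage regions in CD4+ libraries; red, the same in CD8+ libraries; grey, other regions). CD8+ libraries have 2 peaks in the 8 regions and 1 in the 6, while grey regions are shared by both lineages in places.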

How the data were processed

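ATAC-seq libraries of sorted T cells were deposited as 1 peak list per library, so animals had not been pooled. The submitters' processing notes name cutadapt 1.18, Bowtie2 2.3.4.1, Genrich 0.6 and the build rheMac10. Nothing in the sources used here gives their settings or says whether reads were shifted or duplicates removed. Each list holds the area score deposited by the authors, the −log10 p of the summit deposited by the authors (2.42 to 16.3), and the summit's distance from the peak start. Both served here to order peaks inside one list or to leave weak ones out, and neither gives the depth.

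Peaks of all lists sharing at least 1 bp were merged. The members, groupings and tests were chosen with earlier results of these data known. Regions named were, by rule, the 12 strongest with peaks in 8 CD4+ and 0 CD8+ lists, up to 6 per direction called between states and the first 3 per direction by p between times. The first 2 for the interaction, the lowest and the 2 widest regions, 6 regions at the edges of the rule and the 4 groups with most regions were also named. As 3 groups tied at 4 regions, 5 groups are given. The fit across regions used limma 3.58.1 in R 4.3.3 on ranks with terms for state and time, without the animal, and the state by time product for the interaction. Titles give both animals in every population, so animal numbers pair the libraries. Deviations of same-animal libraries from their group means correlated at 0.434 to 0.549 over 6 pairs of groups. Held-out shares used exact permutation tests in Python 3.11.15 with numpy 2.4.6 and pandas 2.3.3. Figures were drawn with matplotlib 3.10.9.

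Scripts were tested on simulated data with a random seed of 1. Alternatives were equal list lengths, a stricter summit −log10 p of 3, coverage of 50% of a region, windows of 500 bp, autosomes only, other limits in the rule, whole lists, normal scores of ranks, log2 area scores, the animal as a block and each library left out. Planned gene lists, marker checks and sequence motifs were not run, because a genome and annotation of rheMac10 were not used here.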

Additional observations from a re-analysis of the deposited data

Results flagged for a closer look

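Of 84 sets of 4 or 8 libraries checked for 1 value far from the others, 5 had one, where chance alone gives about 1 in 20. In naive CD4+ cells the region on chromosome 1 at 96638767 ranked 2.75 after treatment in animal 1, with the other 3 naive lists at 25.8 to 29.6. The region on chromosome 12 at 21126739 ranked 7.66 in the same library, with the others at 22.4 to 23.9. Both were among the regions higher in memory cells. The region on chromosome 12 at 91382715 ranked 49.7 in naive cells of animal 1 before treatment, with the others at 37.2 to 38.8. The region on chromosome 14 at 9039752, just outside the rule, ranked 49.8 in naive cells of animal 2 before treatment, with the others at 56.9 to 57.9. In the group of 8 regions on chromosome X the median percentile was 43.2 in memory cells of animal 2 before treatment, with the other 7 CD4+ lists at 26.6 to 34.1.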

How the results depend on the processing

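The number of CD4 lineage regions was 534, and 173 with 8 CD4+ and 0 CD8+ libraries required and 1396 with at least 6 and at most 2 allowed. With lists of equal length it was 449, of which 267 were among the 534, and with the other alternatives it was 507 to 706, or 553 to 801 with 1 library left out. The 6 held-out differences between CD4+ and CD8+ libraries are given in this order: chosen in animal 1, in animal 2, in naive cells, in memory cells, after and before treatment. Under the list and region settings they were 52.4 to 61.3, 63.1 to 66.8, 40.4 to 46.3, 29.2 to 33.96, 70.5 to 77.7 and 72.1 to 77.2 points. With 1 of the libraries that were read left out they were 49.3 to 60.0, 64.3 to 70.3, 41.4 to 43.9, 26.5 to 34.8, 72.4 to 77.0 and 75.4 to 80.1 points. The exact p was at its smallest possible value throughout, which says nothing on stability. Libraries were not left out of the choice. With the animal as a block, matching libraries in 4 pairs, the same differences of 54.8, 67.0, 42.4, 31.3, 75.1 and 77.2 points had an exact sign-flip p of 0.125, which cannot pass. In the comparison of memory with naive CD4+ cells, whole lists without shortening gave 60 of 318 regions higher (18.9%, where 9.34% of all tested regions were called). A summit −log10 p of at least 3 gave 10 lower (8.26% of the CD4 lineage regions then tested, against 9.69% of all tested regions). Leaving out 1 library gave 7 to 12 lower, against 17, with 12 only without memory before treatment of animal 1, and the part of having fewer libraries was not separated from that of the library. The animal as a block gave 41 of 158 higher (25.9%, against 12.5% of all tested regions) and 22 lower (13.9%, against 14.2%), with all 32 and 17 among them. It also brought the chromosome 9 region at 1077795 past the threshold (adjusted p = 0.0284). Of 16 named regions called between states 10 stayed called under every setting in which they were tested. Among these 10, the regions on chromosome 1 at 96638767 and 124480772 and on chromosome 9 at 75927200 were not tested at a summit −log10 p of at least 3. The other 6 lost the call in 33 values in all, 4 of them from normal scores or whole lists and 29 from leaving out 1 library, with no reversal. After against before treatment, whole lists called 1 of 318 regions lower (0.314%, against 0.0312% of all tested regions), and no other setting called any. Depth behind the lists was unknown, which limits every statement on missing peaks.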
